A study of Mus musculus with 9 samples.

Results

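Hypoxia-inducible factors (HIFs) act on many genes outside glycolysis, and 31 such target genes were followed in mouse lung. The genes were taken from a list of HIF targets that leaves out glycolysis, were matched by symbol in the deposited count table, and make up 31 of its 30865 genes. All 31 were matched on 1 row each and all 31 had enough counts to be tested. Lung RNA was sequenced in 3 groups of 3 libraries, each named here by its group and replicate number. The knockdown group came from mice whose label says that Hif1a, which encodes the HIF-1α subunit, was knocked down after hypoxia. The hypoxia group came from mice under sustained hypoxia with no knockdown on the label, and the normoxia group from mice in normal oxygen. The labels of the knockdown and hypoxia groups thus both name hypoxia, and libraries of both are called libraries under hypoxia below. Whether the exposure went on during or after the knockdown is not on the label, and no group has a knockdown in normoxia. The sources used here do not give strain, age, sex, oxygen level, length of exposure, or the way and the cells in which Hif1a was lowered. The labels do not say that each library came from its own mouse, so p-values measure the spread between these libraries, part of which may be technical. No label gives a batch.

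In normal oxygen, prolyl hydroxylases mark the HIF-α subunits for destruction through the VHL ubiquitin ligase. In low oxygen the subunits persist, pair with ARNT and bind a short core sequence near their targets. The targets outside glycolysis serve several ends: BNIP3 and BNIP3L tag mitochondria for removal, P4HA, PLOD and LOX enzymes hydroxylate and crosslink collagen, carbonic anhydrases 9 and 12 handle acid at the cell surface, and DDIT4 restrains the growth kinase mTORC1. Many of these genes also answer to other inputs, among them glucocorticoids, the PPAR nuclear receptors, NRF2 and the circadian clock.

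The HIF core sequence was looked for in the promoters, here the 250 bases before each gene start in RefSeq (GRCm38.p6). The letters searched were ACGTG and GCGTG on both strands, and ACGTG also lies within the E-box CACGTG, to which clock and MYC family proteins bind. A window was at hand for 21 of the 31 genes. The core was present in 18 of these 21 genes (85.7%), against 11226 of 27025 genes in all (41.5%), counting a gene when any of its windows held it. Per window the share was 23 of 32 (71.9%), against 12679 of 32851 in all (38.6%), and the E-box stood in 4 of 32 (12.5%), against 6.02% in all. The windows of the HIF target genes were also richer in G and C, 62.6% against 53.2% on average, and the part of base composition in these shares was not tested. A match is a description of the letters and not a bound site. The windows of 4 genes are shown because P4ha1 and Wsb1 were among the few that changed, while Bnip3 and Ankrd37 carry many cores and are common readouts of HIF activity. Capitals mark every core match. P4ha1 is read on the plus strand of chr10:59323046-59323295 and has 3 matches. Wsb1 is read on the minus strand of chr11:79254696-79254945 with 6, of which each of 2 E-boxes counts once per strand, while a second RefSeq start of Wsb1 has a window with 0 matches. Bnip3 is read on the minus strand of chr7:138909507-138909756 with 5, including 1 E-box counted on both strands. Ankrd37 is read on the minus strand of chr8:45999851-46000100 with 4, of which 2 overlap within CACGCGTG.
P4ha1: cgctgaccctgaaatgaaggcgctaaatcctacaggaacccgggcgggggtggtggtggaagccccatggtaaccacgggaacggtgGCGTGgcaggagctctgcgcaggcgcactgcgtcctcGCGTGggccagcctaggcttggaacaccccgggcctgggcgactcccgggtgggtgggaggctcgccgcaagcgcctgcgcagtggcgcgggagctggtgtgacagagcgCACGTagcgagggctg
Wsb1: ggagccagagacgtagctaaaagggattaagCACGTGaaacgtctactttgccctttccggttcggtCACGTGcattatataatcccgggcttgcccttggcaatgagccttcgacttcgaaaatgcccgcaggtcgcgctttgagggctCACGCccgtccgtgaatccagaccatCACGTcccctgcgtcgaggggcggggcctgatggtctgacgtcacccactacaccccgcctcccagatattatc
Bnip3: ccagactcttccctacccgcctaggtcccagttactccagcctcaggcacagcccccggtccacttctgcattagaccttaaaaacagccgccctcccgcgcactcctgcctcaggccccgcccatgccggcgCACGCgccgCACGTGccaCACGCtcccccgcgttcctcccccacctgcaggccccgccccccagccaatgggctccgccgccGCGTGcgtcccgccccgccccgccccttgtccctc
Ankrd37: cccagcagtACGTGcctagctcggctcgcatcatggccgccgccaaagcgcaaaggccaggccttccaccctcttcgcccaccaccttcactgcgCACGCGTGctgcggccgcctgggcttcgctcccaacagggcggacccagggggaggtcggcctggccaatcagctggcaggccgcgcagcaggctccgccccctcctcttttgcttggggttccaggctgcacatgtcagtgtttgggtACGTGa

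The libraries held 15566485 to 18046442 counts in the knockdown group, 17163661 to 17620652 in hypoxia and 16229815 to 16736131 in normoxia. Levels are given as CPM, library-scaled counts with TMM factors. Titles of the samples say muscle while their source says lung, and the markers were those of lung: Sftpc of alveolar type 2 cells stood at 12700 CPM or more in every library, while 6 skeletal muscle markers summed to 3.40 to 18.4 CPM, with Myh4 of fast muscle at 0 in 8 of 9 libraries. Cardiac muscle markers were present and varied between libraries of every group, with sums of 29.5 to 510.2 CPM in the knockdown group, 67.7 to 1020 in hypoxia and 125 to 762 in normoxia. Hif1a itself averaged 85.7 CPM in the knockdown group, 93.4 in hypoxia and 82.3 in normoxia. Its log2 fold change of knockdown over hypoxia was -0.13 (adjusted p = 0.62 by edgeR's quasi-likelihood test, SE 0.08), so Hif1a mRNA did not pass as lower. All 3 knockdown libraries (85.03 to 86.4 CPM) lay below all 3 hypoxia libraries (88.6 to 98.3), as held for 7.43% of all tested genes. HIF-1α protein was not measured, and directions below are those of the libraries labelled knockdown.

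Under hypoxia the HIF targets outside glycolysis did not rise as a group. Against normoxia, 1 of the 31 rose, Bhlhe40, and 1 fell, Wsb1, at an adjusted p under 0.05. Over all 17578 tested genes, 4.22% passed this threshold, 2.77% higher and 1.45% lower. At an unadjusted p under 0.05 there were 7 members, 2 higher and 5 lower, against 9.28% higher and 8.17% lower over all tested genes (17.5% in all). The log2 fold change was above zero for 13 members, where 48.7% of all genes did, and below zero for 18, with a median of -0.06 against -0.01 over all tested genes. Without the library normoxia 1 the split was 17 above and 14 below zero and the median 0.03. The size of the log2 fold change was under 0.5 for 25 of 31 members, while 16.7% of all tested genes reached 0.5, and the upper limit of its 95% interval lay under 1, a doubling, for 29 of 31. In 1 member all 3 hypoxia libraries lay above all 3 normoxia libraries (10.6% of all tested genes) and in 6 they lay below (11.6%).

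Between the libraries labelled knockdown and hypoxia alone, none of the 31 genes passed the threshold by edgeR, where 1.71% of all tested genes did, 1.26% higher and 0.449% lower. At an unadjusted p under 0.05 there were 3 members, 1 higher and 2 lower, against 5.94% higher and 5.02% lower (11% in all) over all tested genes. DESeq2 called 1 member, Stc1, lower, and limma-voom called none. The median log2 fold change was 0.03 over members and -0.00 over all genes, and 17 members lay above zero, where 49.4% of all genes did. In size 30 of 31 lay under 0.5, which 12.9% of all genes reached. The upper limit of the 95% interval was under 1 in 29, and the lower limit was above -1, a halving, in 28. The lower limits of Car12 (-1.67), Stc1 (-1.17) and Stc2 (-1.07) lay below -1. The groups did not overlap for 3 members above (8.58% of all genes) and 3 below (7.43%).

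Against normoxia, the libraries labelled knockdown had 1 member higher, Bhlhe40, and 3 lower, P4ha1, Wsb1 and Stc1. In this comparison 8.23% of all tested genes passed, 4.79% higher and 3.44% lower. At an unadjusted p under 0.05 there were 4 higher and 6 lower, against 12% and 11.1% of all genes (23.1% in all). The median log2 fold change over members was -0.04, 14 members lay above zero where 49.3% of all genes did, and 25 of 31 were under 0.5 in size, which 19.6% of all genes reached. The knockdown libraries lay above all normoxia libraries for 3 members (14.5% of all genes) and below them for 5 (13.5%). This comparison shares its normoxia libraries with hypoxia over normoxia, so the values of both are set side by side and not counted as separate support. The edgeR F-test for any difference among the 3 groups passed 4 of 31 members, Bhlhe40, Wsb1, Stc1 and P4ha1, against 7.95% of all genes, and P4ha1 did so narrowly (adjusted p = 0.0497). Which calls passed depended on single libraries, as is given below gene by gene.

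**Figure D1:**
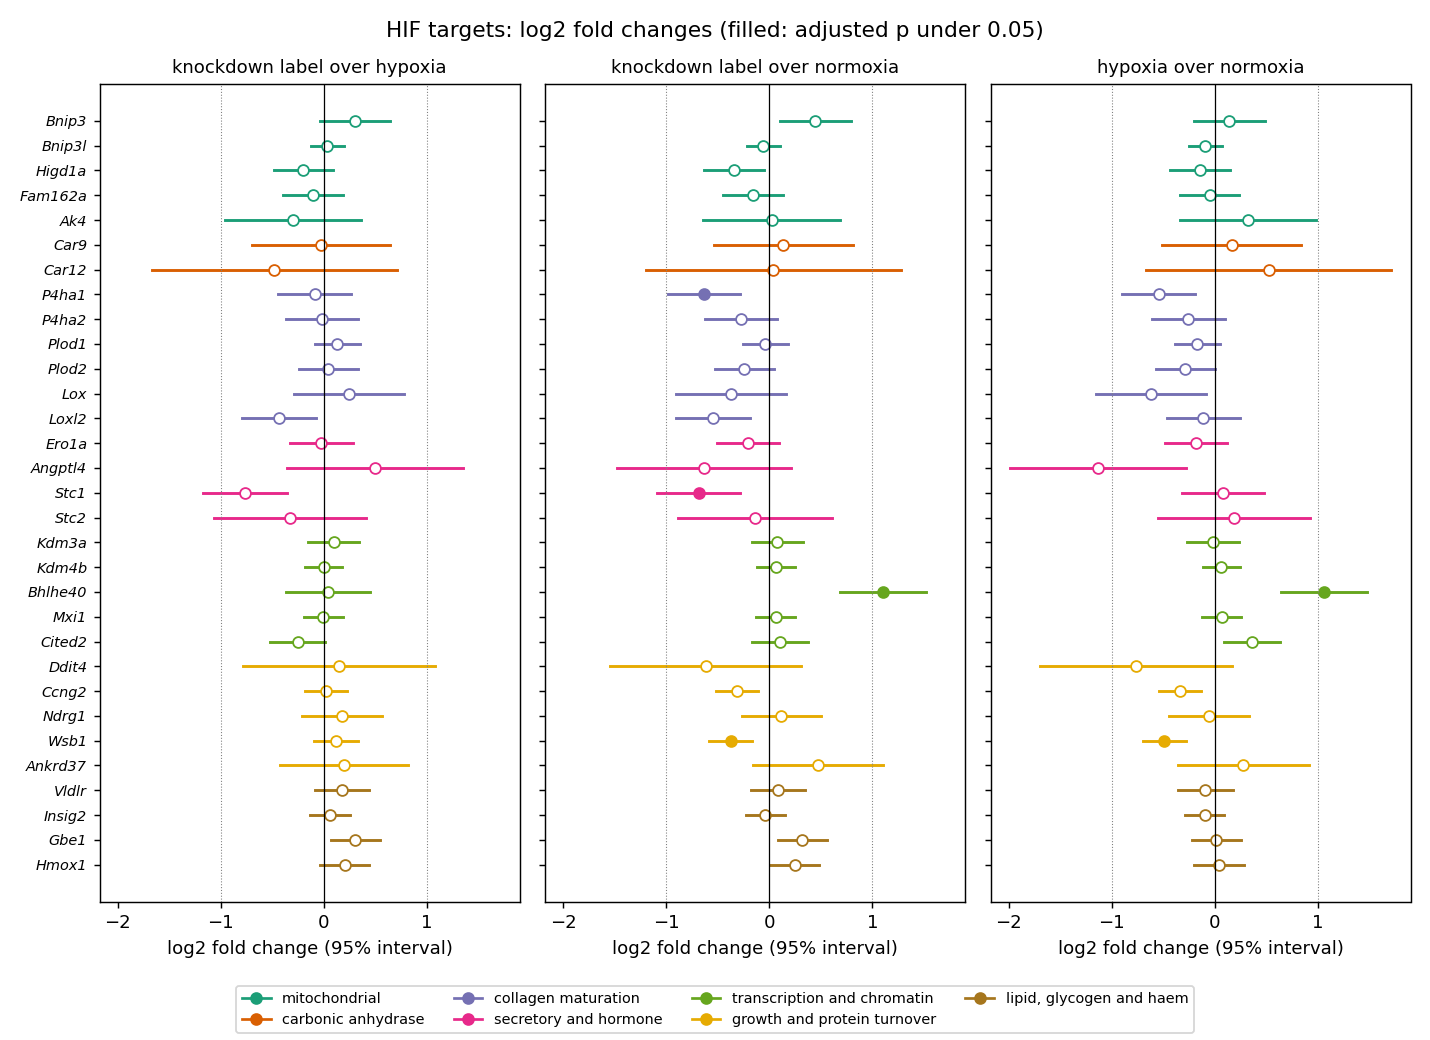
Log2 fold changes (points) with 95% intervals (lines) of the 31 HIF target genes, grouped by role, for knockdown over hypoxia, knockdown over normoxia and hypoxia over normoxia. Filled points have an adjusted p under 0.05, which holds for Bhlhe40 and Wsb1 in hypoxia over normoxia, for Bhlhe40, P4ha1, Wsb1 and Stc1 in knockdown over normoxia and for none in knockdown over hypoxia.

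The levels of these genes spanned a wide range in lung. Scaled by the length of their exons in GENCODE M21, mean levels over the 9 libraries ran between 0.0996 CPM per kilobase for Car12 and 57.2 for Bnip3l. After Bnip3l came Wsb1 (35.8), P4ha1 (30.4), Fam162a (25.9) and Ddit4 (25.7). At the low end above Car12 stood Stc2 (0.610), Car9 (1.01), Ak4 (1.09) and Stc1 (1.65). In all, 16 members were at 10 CPM per kilobase or more and 5 were under 2. The neighbours Fam162a and Ddit4 did not differ beyond the spread of Ddit4, and neither did Car9 and Ak4 beyond theirs.

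**Figure D2:**
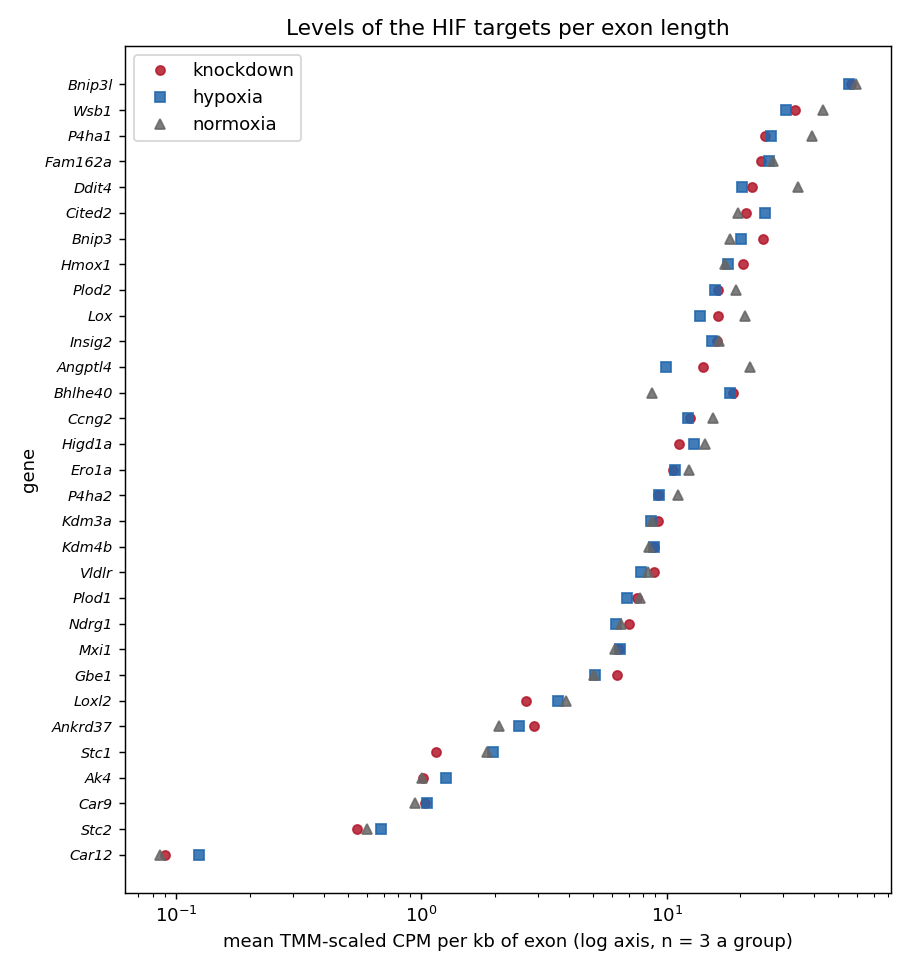
Mean level of each HIF target gene in CPM per kilobase of exon (log axis) in the knockdown, hypoxia and normoxia groups, ordered by the mean over all 9 libraries. Levels run between 0.0996 for Car12 and 57.2 for Bnip3l, and the 3 group means of most genes lie close together beside the distance between genes.

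Of the 5 genes for transcription and chromatin, Bhlhe40 changed and Kdm3a, Kdm4b, Mxi1 and Cited2 did not pass. Bhlhe40 (chr6:108660629-108666925, plus strand), a basic helix-loop-helix repressor that also acts on the circadian clock, had 103, 94.5 and 65.5 CPM in the knockdown libraries, 79.6, 85.4 and 90.9 in hypoxia, and 52.7, 35.8 and 34.4 in normoxia. Every library under hypoxia, with or without the knockdown label, lay above every normoxia library. It rose in hypoxia over normoxia, with a log2 fold change of 1.06 (adjusted p = 0.012, SE 0.19), and in knockdown over normoxia, with 1.10 (adjusted p = 0.0049, SE 0.19). Knockdown over hypoxia was 0.04 with a 95% interval of -0.36 to 0.45 (adjusted p = 0.97). The call in hypoxia over normoxia was lost without normoxia 3 (adjusted p = 0.061), while that in knockdown over normoxia held in all 16 alternatives. Clock genes moved in the same comparisons: of 17 tested, 7 rose and 4 fell in hypoxia over normoxia, 8 rose and 4 fell in knockdown over normoxia, and none passed in knockdown over hypoxia. The log2 fold changes of these 17 ran between -3.97 and 5.20 in hypoxia over normoxia and between -3.89 and 4.85 in knockdown over normoxia. Bhlhe41, the paralog of Bhlhe40 with a like role, averaged 28.1 ± 8.09 CPM in the knockdown group, 27.5 ± 5.49 in hypoxia and 7.28 ± 0.887 in normoxia (SD, n = 3 each), a log2 fold change of 1.94 for knockdown over normoxia (adjusted p = 0.00035) and 1.92 for hypoxia over normoxia (adjusted p = 0.0024). The 8 T and NK cell markers also rose in hypoxia over normoxia, 8 of 8, with summed levels of 239 to 339 CPM in the knockdown group, 199 to 613 in hypoxia and 55.2 to 68.3 in normoxia, and none of them was at 0 in any library. Of these 8, 4 fell in knockdown over hypoxia and 3 rose in knockdown over normoxia. Of 9 macrophage and monocyte markers, 4 rose in hypoxia over normoxia, 2 in knockdown over hypoxia and 6 in knockdown over normoxia, with summed levels of 648 to 1214 CPM in the knockdown group, 652 to 732 in hypoxia and 366 to 522 in normoxia and no marker at 0. In bulk RNA a change in the number of cells of a type and in RNA per cell cannot be told apart, and the part of the clock and of these cells in the level of Bhlhe40 was not tested.

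KDM3A and KDM4B remove methyl groups from histone H3 lysine residues and need oxygen to do so. Kdm3a averaged 75.8 ± 12.3 CPM in the knockdown group, 71.0 ± 3.62 in hypoxia and 71.9 ± 3.81 in normoxia (SD, n = 3 each). Kdm4b averaged 43.4 ± 2.997 CPM in the knockdown group, 43.5 ± 1.90 in hypoxia and 41.6 ± 1.04 in normoxia (SD, n = 3 each). Mxi1, a MYC antagonist, averaged 43.7 ± 2.23, 43.9 ± 1.78 and 41.9 ± 2.85 CPM in the same 3 groups. Cited2 competes with HIF-α for the coactivators p300 and CBP, and averaged 51.9 ± 3.74 CPM in the knockdown group, 61.9 ± 5.59 in hypoxia and 48.2 ± 8.22 in normoxia (SD, n = 3 each). Its log2 fold change of hypoxia over normoxia was 0.36 (adjusted p = 0.14, SE 0.12), and 0.51 without normoxia 1 (adjusted p = 0.035). That was the only 1 of the 9 fits without a library in which Cited2 passed, and the adjusted p ran up to 0.39.

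**Figure D3:**
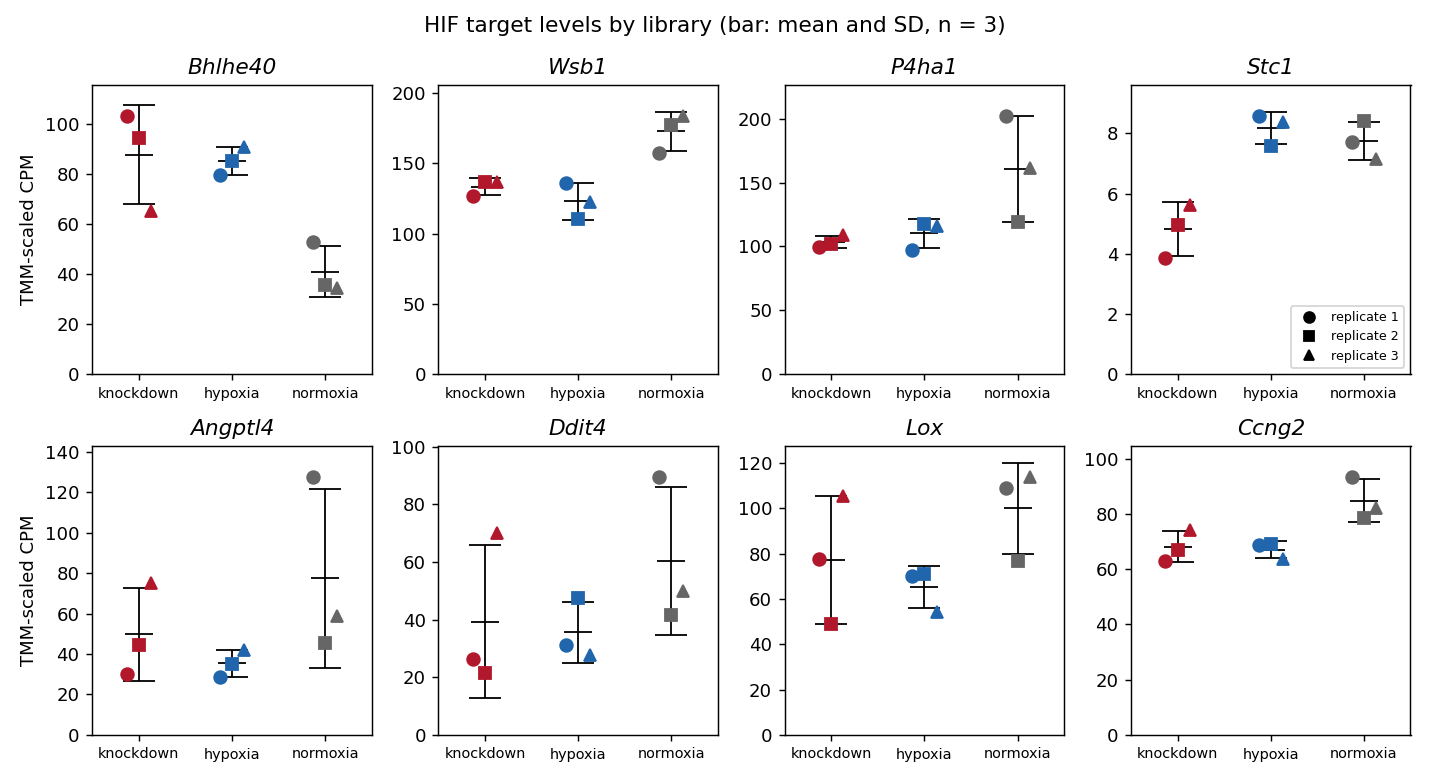
CPM of 8 HIF target genes in each library, with the axis starting at 0, for the knockdown, hypoxia and normoxia groups. Marker shape gives the replicate number and bars the mean ± SD of 3 libraries: Bhlhe40 is lower in all normoxia libraries, Wsb1 is higher in them, and normoxia 1 stands far above the rest for Angptl4 at 128 CPM.

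Among the 5 genes for growth and protein turnover, Wsb1 fell and the others did not pass. Wsb1 (chr11:79239372-79254671, minus strand) encodes a substrate receptor of a ubiquitin ligase. It had 126, 137 and 136 CPM in the knockdown libraries, 136, 110.1 and 122 in hypoxia, and 157, 177 and 184 in normoxia. All 6 libraries under hypoxia lay below all 3 normoxia libraries. The log2 fold change was -0.49 in hypoxia over normoxia (adjusted p = 0.018, SE 0.10) and -0.37 in knockdown over normoxia (adjusted p = 0.036, SE 0.10), and 0.12 in knockdown over hypoxia (95% interval -0.09 to 0.33, adjusted p = 0.75). In hypoxia over normoxia the call was lost without hypoxia 3 (adjusted p = 0.077), normoxia 2 (0.060) or normoxia 3 (0.0999). In knockdown over normoxia it was lost without knockdown 1 (0.12), knockdown 2 (0.075), knockdown 3 (0.083), hypoxia 3 (0.058), normoxia 2 (0.10) or normoxia 3 (0.15).

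Ddit4, whose product restrains mTORC1 and which glucocorticoids also induce, had 26.4, 21.5 and 69.9 CPM in the knockdown libraries, 31.3, 47.4 and 27.9 in hypoxia, and 89.6, 41.8 and 49.8 in normoxia. The groups overlapped, with knockdown 3 and normoxia 1 highest in their groups. Its log2 fold change was -0.76 in hypoxia over normoxia (adjusted p = 0.39, SE 0.42), -0.62 in knockdown over normoxia (adjusted p = 0.43) and 0.15 in knockdown over hypoxia (adjusted p = 0.95). Without normoxia 1 it was -0.37 in hypoxia over normoxia (adjusted p = 0.73), and without knockdown 3 it was -1.33 in knockdown over normoxia (adjusted p = 0.049) and -0.57 in knockdown over hypoxia (adjusted p = 0.68). Of the 10 glucocorticoid-responsive genes tested, 3 fell (1.45% of all genes) and none rose in hypoxia over normoxia. Dusp1, a phosphatase of MAP kinases, was among those that fell, at -1.83 (adjusted p = 0.0045). In the same comparison 7 of the 10 lay below zero and 3 above, Fkbp5 (0.69), Per1 (0.35) and Klf9 (0.18). None passed in knockdown over hypoxia, and 3 fell in knockdown over normoxia (3.44% of all genes). The summed level of all 11 listed was 1441 to 2302 CPM in the knockdown group, 1530 to 1946 in hypoxia and 2126 to 3724 in normoxia, highest in normoxia 1, with Mt2 at 0 in at least 1 library. The part of glucocorticoid signalling in Ddit4 was not tested.

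Ankrd37, a small ankyrin-repeat gene widely used as a HIF readout, had 3.07, 5.29 and 4.86 CPM in the knockdown libraries, 4.71, 3.53 and 3.28 in hypoxia, and 4.05, 2.48 and 2.999 in normoxia. Those levels rest on 41 to 85 counts a library, and the groups overlapped. Hypoxia over normoxia had a log2 fold change of 0.28 (95% interval -0.36 to 0.91, adjusted p = 0.70), in knockdown over normoxia 0.47 (adjusted p = 0.36) and in knockdown over hypoxia 0.20 (adjusted p = 0.89). Ankrd37 shares 349 exon bases with Lrp2bp (a mean of 25 counts) and 57 with Ufsp2 (a mean of 470 counts) on the opposite strand. The sources used here do not say whether reads were counted by strand, and in all 12 of the 31 genes share exon bases with a gene on the opposite strand.

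Ndrg1, a stress-responsive gene of the N-myc downstream regulated family, had 43.9, 53.9 and 41.7 CPM in the knockdown libraries, 32.0, 44.9 and 46.7 in hypoxia, and 49.96, 33.7 and 44.99 in normoxia. The groups overlapped throughout, and its log2 fold changes were -0.06 in hypoxia over normoxia (adjusted p = 0.91), 0.12 in knockdown over normoxia (adjusted p = 0.75) and 0.17 in knockdown over hypoxia (adjusted p = 0.82). Ccng2, an atypical cyclin linked to cell-cycle arrest, was singled out after its values were seen. It averaged 68.1 ± 5.72 CPM in the knockdown group, 67.0 ± 3.06 in hypoxia and 84.8 ± 7.76 in normoxia (SD, n = 3 each). All 6 libraries under hypoxia lay below all normoxia libraries, but the log2 fold changes of -0.34 in hypoxia over normoxia (adjusted p = 0.072, SE 0.09) and -0.31 in knockdown over normoxia (adjusted p = 0.065) did not pass by edgeR, while DESeq2 gave an adjusted p of 0.028 for each.

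The 6 collagen-maturation genes all had log2 fold changes below zero against normoxia. Of all tested genes, 48.7% lay above zero in hypoxia over normoxia and 49.3% in knockdown over normoxia. The median of the 6 was -0.27 in hypoxia over normoxia, where none passed, and -0.32 in knockdown over normoxia, where P4ha1 fell. Normoxia 2 was the lowest normoxia library for each of the 6, so their signs are not separate observations. Between knockdown and hypoxia, 3 lay above and 3 below zero and none passed. P4ha1 (chr10:59323296-59373304, plus strand) encodes the catalytic subunit of a collagen prolyl 4-hydroxylase. It had 99.9, 102 and 109 CPM in the knockdown libraries, 97.0, 118 and 116 in hypoxia, and 202, 119 and 162 in normoxia. All libraries under hypoxia lay below all normoxia libraries, with normoxia 2 close to the highest hypoxia value and normoxia 1 far above. The log2 fold change was -0.63 in knockdown over normoxia (adjusted p = 0.035, SE 0.16), -0.55 in hypoxia over normoxia (adjusted p = 0.090, SE 0.16) and -0.09 in knockdown over hypoxia (adjusted p = 0.92). The call in knockdown over normoxia was lost without knockdown 1 (adjusted p = 0.11), knockdown 2 (0.092), knockdown 3 (0.074), normoxia 1 (0.091, log2 fold change -0.44) or normoxia 3 (0.10). In hypoxia over normoxia it passed by DESeq2 (adjusted p = 0.021), with no low-count filter (0.0042) and without normoxia 2 (0.017), and without normoxia 1 the log2 fold change was -0.35 (adjusted p = 0.21).

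The P4ha1 paralog P4ha2 averaged 57.3 ± 4.39 CPM in the knockdown group, 58.0 ± 8.40 in hypoxia and 69.3 ± 15.7 in normoxia (SD, n = 3 each). The lysyl hydroxylase gene Plod2 averaged 87.4 ± 12.3 CPM in the knockdown group, 84.8 ± 6.71 in hypoxia and 103 ± 15.5 in normoxia, and Plod1 averaged 51.0 ± 1.80, 46.7 ± 3.60 and 52.5 ± 5.92 CPM in the same groups. None of these differences passed. Lox, which encodes lysyl oxidase of collagen and elastin crosslinks, had 77.6, 48.7 and 105 CPM in the knockdown libraries, 70.1, 70.8 and 54.4 in hypoxia, and 109, 76.8 and 114 in normoxia. Its hypoxia libraries lay below all normoxia libraries and its knockdown libraries overlapped with both, with a log2 fold change of hypoxia over normoxia of -0.62 (adjusted p = 0.21, and 0.017 with no low-count filter). Loxl2, a lysyl oxidase paralog, had its lowest 3 values in the knockdown group, which averaged 14.4 ± 2.10 CPM against 19.5 ± 2.42 in hypoxia and 21.01 ± 3.70 in normoxia (SD, n = 3 each). Its log2 fold change was -0.44 in knockdown over hypoxia (adjusted p = 0.33) and -0.55 in knockdown over normoxia (adjusted p = 0.069 by edgeR, 0.026 by DESeq2 and 0.031 by edgeR with no low-count filter). Lox and Loxl2 were singled out after their values were seen.

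Other genes of collagen assembly, listed by function with earlier results of these data known, gave few calls. Of 11 tested, none passed in hypoxia over normoxia or in knockdown over hypoxia, and 1 fell in knockdown over normoxia, the lysyl oxidase paralog Loxl1 at -0.92 (adjusted p = 0.012, SE 0.19), a call lost without normoxia 3 (adjusted p = 0.058). Of 6 fibroblast markers 1 fell in hypoxia over normoxia and 1 in knockdown over normoxia, with summed levels of 943 to 1039 CPM in the knockdown group, 885 to 1081 in hypoxia and 1054 to 1169 in normoxia and no marker at 0. Of 6 smooth muscle and pericyte markers, summed at 301 to 393 CPM in the knockdown group, 305 to 395 in hypoxia and 432 to 459 in normoxia, none passed in hypoxia over normoxia and 1 fell in knockdown over normoxia. The part of these cells in the collagen enzymes was not tested.

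Among the secreted factors and the secretory enzyme Ero1a, Stc1 fell against normoxia in the libraries labelled knockdown, and Angptl4, Stc2 and Ero1a did not pass. Stc1 (chr14:69029238-69041804, plus strand) encodes stanniocalcin 1, a secreted glycoprotein. It had 3.85, 4.96 and 5.63 CPM in the knockdown libraries, 8.58, 7.58 and 8.39 in hypoxia, and 7.715, 8.40 and 7.14 in normoxia. These rest on 69, 76 and 96 counts in the knockdown libraries, 155, 133 and 146 in hypoxia, and 122, 139 and 119 in normoxia. All 3 knockdown libraries lay below the other 6, and hypoxia and normoxia overlapped. The log2 fold change was -0.77 in knockdown over hypoxia (adjusted p = 0.078 by edgeR and 0.0094 by DESeq2, SE 0.18), -0.69 in knockdown over normoxia (adjusted p = 0.045, SE 0.18) and 0.08 in hypoxia over normoxia (adjusted p = 0.88). The call in knockdown over normoxia was lost when any 1 library other than knockdown 3 or hypoxia 2 was left out, with adjusted p between 0.064 and 0.13.

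Angptl4, which encodes an inhibitor of lipoprotein lipase and answers to PPARs and glucocorticoids as well as to HIF, had 29.9, 44.55 and 75.1 CPM in the knockdown libraries, 28.7, 35.1 and 42.1 in hypoxia, and 128, 45.6 and 58.8 in normoxia. Every hypoxia library was below every normoxia library, and the knockdown libraries spread over both ranges. Its log2 fold change in hypoxia over normoxia, -1.13 (adjusted p = 0.15, SE 0.39), was the largest in size among the 31 genes and did not pass. It passed with no low-count filter (adjusted p = 0.0015), and it was -0.56 without normoxia 1 (adjusted p = 0.41). In knockdown over normoxia it was -0.63 (adjusted p = 0.36), or -0.07 without normoxia 1 (adjusted p = 0.93), and in knockdown over hypoxia 0.50 (adjusted p = 0.74), or 0.07 without knockdown 3 (adjusted p = 0.98). Of 11 PPAR targets tested, 2 fell in hypoxia over normoxia, among them the acyl-CoA thioesterase gene Acot1 at -1.36 (adjusted p = 0.0081), and the summed level of the 12 listed was 694 to 822 CPM in the knockdown group, 656 to 708 in hypoxia and 661 to 877 in normoxia. Adipocyte markers, of which Adipoq, Plin1 and Lep were at 0 in at least 1 library, summed to 28.9 to 145 CPM in the knockdown group, 23.6 to 117 in hypoxia and 14.6 to 84.7 in normoxia, highest among normoxia libraries in normoxia 1. In the other groups this sum was highest in knockdown 1 and hypoxia 2, where Angptl4 had 29.9 and 35.1 CPM. It was lowest in knockdown 2 and hypoxia 3, where Angptl4 had 44.55 and 42.1 CPM. None of the 5 adipocyte markers tested passed in hypoxia over normoxia, and the part of PPAR targets and fat cells in Angptl4 was not tested.

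Ero1a, an oxidase that forms disulphide bonds in the endoplasmic reticulum, had 59.5, 45.6 and 63.9 CPM in the knockdown libraries, 53.6, 59.5 and 58.8 in hypoxia, and 54.3, 68.6 and 72.3 in normoxia. The groups overlapped, with log2 fold changes of -0.18 in hypoxia over normoxia (adjusted p = 0.55), -0.21 in knockdown over normoxia (adjusted p = 0.41) and -0.02 in knockdown over hypoxia (adjusted p = 0.98). Stc2, the paralog of Stc1, averaged 2.82 ± 0.881 CPM in the knockdown group, 3.54 ± 1.08 in hypoxia and 3.11 ± 0.765 in normoxia (SD, n = 3 each), and none of its differences passed.

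None of the 5 mitochondrial genes passed by edgeR in any comparison with all 9 libraries and the low-count filter. Bnip3, which encodes a mitophagy receptor of the outer mitochondrial membrane, had 54.5, 46.4 and 67.6 CPM in the knockdown libraries, 42.5, 53.9 and 40.1 in hypoxia, and 46.5, 39.8 and 37.4 in normoxia. Hypoxia and normoxia overlapped, and the knockdown group held the highest value. The log2 fold change was 0.14 in hypoxia over normoxia (95% interval -0.20 to 0.48, adjusted p = 0.71), 0.31 in knockdown over hypoxia (adjusted p = 0.53) and 0.45 in knockdown over normoxia (adjusted p = 0.11, and 0.035 with no low-count filter). Without knockdown 3 the value in knockdown over hypoxia was 0.15 (adjusted p = 0.86). Its paralog Bnip3l, the most abundant member per length and also used by maturing red cells to clear mitochondria, was among the steadiest, with 219 ± 11.6 CPM in the knockdown group, 214 ± 10.8 in hypoxia and 228 ± 2.67 in normoxia (SD, n = 3 each).

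Higd1a, a small inner-membrane protein gene linked to respiratory complexes, averaged 34.3 ± 2.78 CPM in the knockdown group, 39.3 ± 2.37 in hypoxia and 43.5 ± 8.12 in normoxia (SD, n = 3 each), with a log2 fold change of -0.34 in knockdown over normoxia (adjusted p = 0.14), and of -0.48 without normoxia 2 (adjusted p = 0.035). That was the only 1 of the 9 fits without a library in which Higd1a passed, and the adjusted p ran up to 0.37. Fam162a, a mitochondrial gene linked to hypoxic cell death, averaged 20.7 ± 1.86 CPM in the knockdown group, 22.2 ± 1.06 in hypoxia and 23.1 ± 3.81 in normoxia. Ak4, an adenylate kinase of the mitochondrial matrix, averaged 4.73 ± 0.911 CPM in the knockdown group, 5.83 ± 2.04 in hypoxia and 4.65 ± 1.36 in normoxia. The SDs of Ak4 in hypoxia and in normoxia, but not that in the knockdown group, exceeded every distance between its means. Of 12 other mitophagy and stress genes, 1 passed in hypoxia over normoxia, the stress transcription factor gene Atf4, which fell by 0.49 on the log2 scale (adjusted p = 0.043). That call held only without normoxia 2 when single libraries were left out, with adjusted p of 0.054 to 0.14 in the other 8, and none of the 12 passed in the other 2 comparisons.

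The carbonic anhydrase genes were among the members with the fewest counts, and Car12 had the fewest. Car9, which encodes a cell-surface enzyme and is a standard marker of hypoxic tumours, had 2.96, 2.42 and 1.76 CPM in the knockdown libraries, 2.82, 1.71 and 2.76 in hypoxia, and 2.53, 1.93 and 2.04 in normoxia. Those levels rest on 30 to 53 counts a library, the groups overlapped throughout, and Car9 shares 214 exon bases with an antisense gene, Gm12454, that has a mean of 30 counts. Hypoxia over normoxia gave a log2 fold change of 0.17 (95% interval -0.51 to 0.84, adjusted p = 0.85), in knockdown over normoxia 0.14 (adjusted p = 0.85) and in knockdown over hypoxia -0.03 (adjusted p = 0.99). Car12, its membrane-bound relative, rested on 6, 18 and 9 counts in the knockdown libraries, 26, 11 and 13 in hypoxia, and 9, 15 and 8 in normoxia. That is 0.335, 1.18 and 0.527 CPM in the knockdown libraries, 1.44, 0.627 and 0.747 in hypoxia, and 0.569, 0.906 and 0.480 in normoxia. Its groups overlapped, and its log2 fold changes of 0.52 in hypoxia over normoxia (adjusted p = 0.69), -0.48 in knockdown over hypoxia (adjusted p = 0.84) and 0.04 in knockdown over normoxia (adjusted p = 0.98) could not be told from zero at this depth.

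The 4 genes of lipid, glycogen and haem metabolism did not pass in any comparison. Hmox1, haem oxygenase 1, is also a main target of NRF2, the regulator of the oxidant response. It had 34.35, 38.9 and 34.4 CPM in the knockdown libraries, 30.3, 33.6 and 29.6 in hypoxia, and 33.7, 26.8 and 30.3 in normoxia. Each knockdown library lay above all hypoxia and normoxia libraries, by little, and its log2 fold change was 0.20 in knockdown over hypoxia (adjusted p = 0.56), 0.24 in knockdown over normoxia (adjusted p = 0.21) and 0.04 in hypoxia over normoxia (adjusted p = 0.90). Of 10 other NRF2 targets, none passed in hypoxia over normoxia, 1 rose in knockdown over hypoxia and 3 rose in knockdown over normoxia. Osgin1, an oxidative-stress growth inhibitor gene, rose in both, with 0.55 over hypoxia (adjusted p = 0.019) and 0.78 over normoxia (adjusted p = 0.00091). The call over hypoxia was lost without knockdown 1 (adjusted p = 0.091), knockdown 2 (0.069), hypoxia 1 (0.096) or hypoxia 3 (0.0597), and the part of NRF2 in Hmox1 was not tested.

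Gbe1, the glycogen branching enzyme gene, had 32.7, 29.6 and 38.6 CPM in the knockdown libraries, 27.4, 27.7 and 26.7 in hypoxia, and 28.1, 26.0 and 26.8 in normoxia, and was singled out after its values were seen. All knockdown libraries lay above the other 6, with a log2 fold change of 0.30 over hypoxia (adjusted p = 0.29, SE 0.11) and 0.32 over normoxia (adjusted p = 0.10). Vldlr, a receptor for triglyceride-rich lipoproteins, averaged 89.4 ± 8.98 CPM in the knockdown group, 79.1 ± 8.10 in hypoxia and 84.3 ± 12.0 in normoxia (SD, n = 3 each). Insig2, which holds back cholesterol synthesis, averaged 55.6 ± 1.87 CPM in the knockdown group, 53.3 ± 4.42 in hypoxia and 57.1 ± 3.54 in normoxia (SD, n = 3 each). Of 10 other sterol genes none passed in any comparison by edgeR, with 0 at an unadjusted p under 0.05 in hypoxia over normoxia and 1 in each of the other comparisons.

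**Figure D4:**
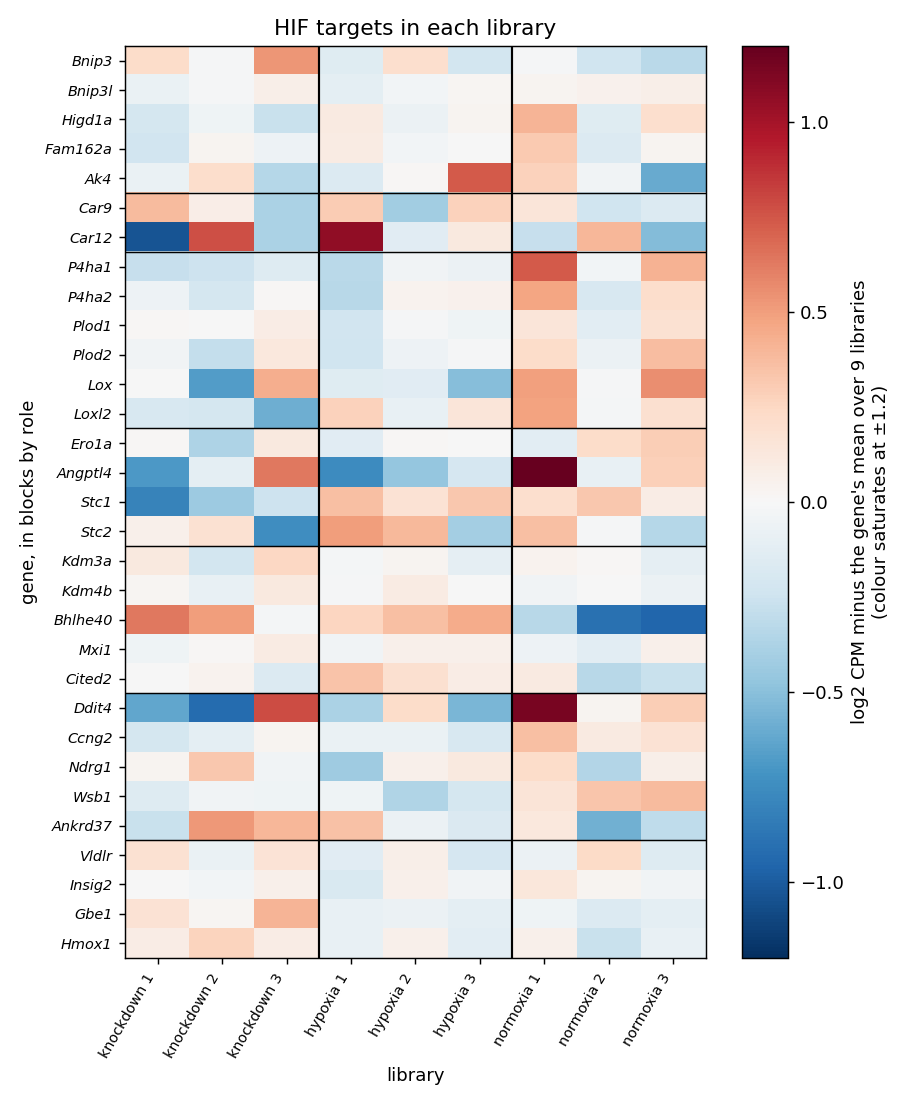
Log2 CPM of the 31 HIF target genes minus each gene's mean over the 9 libraries, with libraries in columns (knockdown, hypoxia, normoxia) and genes in rows by role; the colour scale ends at 1.2 in both directions. Normoxia 1 was the highest normoxia library for 20 of the 31 genes.

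Single libraries stood high for many of these genes at once. Normoxia 1 was the highest of the 3 normoxia libraries for 20 of 31 members and the highest of all 9 for 9, and the summed level of the 31 genes was 1999 CPM there, against 1629 in normoxia 2 and 1804 in normoxia 3. The same sum was 1609, 1558 and 1788 CPM in the knockdown libraries and 1530.0, 1639 and 1589 in hypoxia. Knockdown 3 was the highest of its group for 17 members. The coefficient of variation between libraries of a group had a median over members of 14.0% in the knockdown group, 9.0% in hypoxia and 15.0% in normoxia.

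Of 24 HIF targets of glycolysis, acid export and vessel growth, 2 rose and 1 fell in hypoxia over normoxia (2.77% and 1.45% of all genes), 2 rose in knockdown over hypoxia (1.26% of all genes), and 6 rose and 1 fell in knockdown over normoxia (4.79% and 3.44% of all genes). Their median log2 fold change was 0.12 in hypoxia over normoxia, where 18 of 24 lay above zero and 8 were higher at an unadjusted p under 0.05 (9.28% of all genes). It was 0.05 in knockdown over hypoxia and 0.25 in knockdown over normoxia, where 13 were higher at an unadjusted p under 0.05 (12% of all genes). Whether these genes and the 31 outside glycolysis differ in their response was not tested. The call of Gpi1 in hypoxia over normoxia held only without hypoxia 2 when single libraries were left out, with adjusted p of 0.053 to 0.16 in the other 8. In knockdown over hypoxia the call of Pfkfb3 was lost without knockdown 1 or 3, hypoxia 1 or 3, or normoxia 2 or 3 (adjusted p of 0.057 to 0.17), and that of Slc16a3 held only without knockdown 1 or normoxia 1 (0.062 to 0.19 in the other 7). Pfkfb3, whose product makes the activator of phosphofructokinase, averaged 288 ± 17.7 CPM in the knockdown group, 213 ± 15.9 in hypoxia and 114 ± 10.4 in normoxia (SD, n = 3 each). Adm, which encodes the vasodilator peptide adrenomedullin, averaged 2.60 ± 0.445 CPM in the knockdown group, 3.01 ± 0.9747 in hypoxia and 9.59 ± 1.31 in normoxia (SD, n = 3 each). The log2 fold change in hypoxia over normoxia was 0.90 for Pfkfb3 (adjusted p = 0.0014) and -1.67 for Adm (adjusted p = 0.0078). Of the 10 genes that sense oxygen or form HIF, none passed in hypoxia over normoxia or in knockdown over hypoxia, and 1 fell in knockdown over normoxia, Hif1an, the asparaginyl hydroxylase that limits HIF activity, by 0.37 on the log2 scale (adjusted p = 0.013, and 0.0504 without knockdown 1).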

How the data were processed

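The authors deposited a raw count table with whole numbers for each gene in 9 libraries. Per the labels' protocols, total RNA went into NEBNext Ultra libraries. Per the submitters' processing notes, the tools were HISAT2, TopHat, bcl2fastq, StringTie, DESeq and limma with mm10; the sources used here do not give the order of steps, the counting program or its strand setting. Members and gene lists were chosen with earlier results of these data known, and 215 of 216 list entries matched by symbol; 158 rows had no symbol.

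The test was that of edgeR 4.0.16 (R 4.3.3). filterByExpr kept 17578 genes and TMM factors were 0.976 to 1.03. A quasi-likelihood fit of all 9 libraries, with group as its term, had 6 residual degrees of freedom, and its common biological coefficient of variation was 17.3%. Unless another tool is named, adjusted p-values are from its F-tests, Benjamini-Hochberg adjusted across every gene tested, and the threshold was 0.05. Standard errors and 95% intervals come from the F statistic. Replicate pairs differed well beyond sampling noise, with chi-square per degree of freedom of 11.9 to 23.5. Intervals and counts cover reads without molecular identifiers, which are not independent molecules. The alternatives were DESeq2 1.42.0, its size factors within edgeR, limma-voom (limma 3.58.1), other low-count filters, a replicate block, a fit of the libraries compared alone, and each library left out in turn. Positions are from GENCODE M21 and promoters from RefSeq, both of GRCm38 (mm10).

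Values are given in full for members past the threshold, for the 3 largest changes in each comparison, and for Ankrd37, Bnip3, Car9, P4ha1, Ero1a, Ndrg1 and Hmox1. Other members are given as means. Cited2 and Higd1a also have fold changes outside this rule, and other genes outside it are named as such.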

Additional observations from a re-analysis of the deposited data

How the results depend on the processing

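The number of genes changed in hypoxia over normoxia was 742, against 1309 with DESeq2, 462 with limma-voom, 1293 with no low-count filter and 444 in a fit of the 6 libraries alone. In knockdown over hypoxia it was 301, against 567 with DESeq2 and 644 with no filter, and among the 3 groups 1397, against 2258 and 2195. Among the 31 HIF targets, those lower in hypoxia over normoxia numbered 1, against 3 with DESeq2 and 4 with no filter; in knockdown over hypoxia 0, against 1 with DESeq2; in knockdown over normoxia 3, against 5 with DESeq2, while those higher numbered 1, against 2 with no filter. Members differing among the 3 groups numbered 4, against 7 with no filter. The replicate numbers did not pair the samples (correlations of same-numbered deviations of -0.423 to 0.274). With them as a block, genes changed numbered 400 in hypoxia over normoxia, 197 in knockdown over hypoxia, 936 in knockdown over normoxia and 838 among the 3 groups, and members lower numbered 0 in hypoxia over normoxia and 0 in knockdown over normoxia, with 1 differing among the 3 groups. Leaving out each library in turn gave 209 to 965, 189 to 425 and 715 to 1567 genes changed in hypoxia over normoxia, knockdown over hypoxia and knockdown over normoxia, and 678 to 1647 among the 3 groups. It gave 0 to 2 members higher and 0 to 1 lower in hypoxia over normoxia, 0 to 0 in knockdown over hypoxia, 1 to 1 higher and 0 to 3 lower in knockdown over normoxia, and 1 to 4 among the 3 groups. Values near zero turned sign: with limma-voom Ddit4 was -0.0077 in knockdown over hypoxia and Car12 -0.11 in knockdown over normoxia. Leaving out 1 library, the log2 fold change in knockdown over hypoxia ran between -0.0915 and 0.21 for Bhlhe40, -0.57 and 0.43 for Ddit4, -0.24 and 0.14 for Car9 and -0.13 and 0.10 for Ero1a. In knockdown over normoxia it ran between -0.60 and 0.37 for Car12, -0.0546 and 0.31 for Car9 and -0.0321 and 0.24 for Ndrg1, and in hypoxia over normoxia between -0.20 and 0.11 for Ndrg1 and -0.0346 and 0.13 for Hmox1. The causes were not tested. Of the members, 6 averaged under 10 CPM (Car12, Car9, Stc2, Ankrd37, Ak4 and Stc1), where counting error is largest.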
